A study of Mus musculus with 12 samples.

Results

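Npy, Ghrl and Gng4 were described in mouse bone marrow derived macrophages of Piezo1 knockout and wild-type genotype. Piezo1 encodes a mechanically gated cation channel. The genes described are 3 of the 25230 genes in the deposited table, matched by symbol. The 3 genes were chosen by their TPM values, as hormone and G protein genes whose levels differed between genotypes in cells given PBS, so that gap is given below as a description with no test. The rule did not use the libraries from cells given Candida albicans, a fungus that grows as yeast and hyphae, and the gap there was tested. The 4 groups, of 3 libraries each, were Piezo1 knockout with C. albicans, wild type with C. albicans, Piezo1 knockout with PBS and wild type with PBS. All were polyadenylated RNA of marrow cells grown in M-CSF. For the knockout cells labelled as treated with PBS, the library titles say DMSO, and the sources used here do not settle which vehicle was given. The labels give neither the strain and age of the mice, nor how the knockout was made, nor the dose and duration of C. albicans, and they do not state whether the replicates are separate mice or cultures. The p-values therefore speak only of library-to-library spread, which may be technical.

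Neuropeptide Y, the product of Npy, is a peptide made mainly by neurons and sympathetic nerves that acts through a family of G protein-coupled receptors, several of which signal through inhibitory G proteins. Ghrelin, the product of Ghrl, is a stomach hormone that must be acylated by the enzyme encoded by Mboat4 before it activates its receptor, encoded by Ghsr. Gng4 encodes a gamma subunit of heterotrimeric G proteins, which pairs with a beta subunit to anchor the complex at the membrane and to pass signals from activated receptors to effectors.

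The libraries held 16400119 to 25741091 reads in genes, and levels are in TPM, a transcript abundance scaled to library size and gene length. Piezo1 itself averaged 64.9 TPM in knockout and 137 TPM in wild type with C. albicans, and 65.4 TPM in knockout and 135 TPM in wild type with PBS. The knockout libraries therefore still held Piezo1 reads, and the term knockout is taken from the labels. In wild type with C. albicans, replicate 1 differed from replicates 2 and 3 more than any others did, in that a chi-square statistic of reads over genes, divided by its degrees of freedom, was 16.2 and 15.3 against them and 1.49 to 4.60 in the other replicate pairs. Results that rest on that library are given with and without it.

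Npy lies on the forward strand of chromosome 6 (49822710 to 49829507 in GRCm38.p6, gene 109648) and Ghrl on the reverse strand of the same chromosome (113716119 to 113719911, gene 58991). Gng4 lies on the forward strand of chromosome 13 (13784059 to 13827895, gene 14706). Windows of the 250 bases upstream of each outermost annotated start are shown so that their composition can be compared. They are RefSeq sequences of that build, read 5′ to 3′ on the strand of the gene, from chr6:49822460-49822709, chr6:113719912-113720161 and chr13:13783809-13784058. Capitals mark the motif GGGCGG.
Npy: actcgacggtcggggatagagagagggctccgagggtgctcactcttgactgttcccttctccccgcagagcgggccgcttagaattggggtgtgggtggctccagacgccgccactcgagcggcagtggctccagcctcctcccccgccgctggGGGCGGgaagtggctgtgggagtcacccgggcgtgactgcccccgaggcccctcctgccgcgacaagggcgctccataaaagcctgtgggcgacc
Ghrl: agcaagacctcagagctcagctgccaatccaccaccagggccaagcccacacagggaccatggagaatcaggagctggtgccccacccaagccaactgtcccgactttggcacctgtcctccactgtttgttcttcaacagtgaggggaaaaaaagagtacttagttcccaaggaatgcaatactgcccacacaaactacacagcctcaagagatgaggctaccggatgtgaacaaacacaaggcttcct
Gng4: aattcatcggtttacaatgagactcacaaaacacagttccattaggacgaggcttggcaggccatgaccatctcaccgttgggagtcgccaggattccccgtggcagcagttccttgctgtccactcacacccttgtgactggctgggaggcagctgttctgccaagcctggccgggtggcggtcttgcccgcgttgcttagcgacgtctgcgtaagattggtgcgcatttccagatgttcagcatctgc
The Npy window had a GC content of 69.2%, against 52.8% for Ghrl and 56.4% for Gng4, where the median of 32851 such windows was 52.4%. Of the 6 motifs searched on both strands, GGGCGG was in the Npy window, 95 bases before the start, and in 32.7% of all windows. The TATA element TATAAA was in 12.4% of all windows. The short cyclic AMP response element TGACG was in 17.8%, and the longer TGACGTCA, which holds the short one, in 1.55%. The AP-1 motif TGANTCA was in 6.75% and the E-box CACGTG in 6.02%. Of these other 5 motifs none was in any of the 3 windows, and GGGCGG was in neither the Ghrl nor the Gng4 window.

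Npy was among the abundant transcripts of these macrophages, and in cells given C. albicans its level did not separate the genotypes. With C. albicans, Npy stood at 899, 931 and 929 TPM in knockout replicates 1 to 3, against 839, 974 and 963 TPM in wild type. The knockout values lay within the range of the wild-type values. With PBS, Npy stood at 945, 983 and 973 TPM in knockout cells, against 518, 536 and 523 TPM in wild-type cells, with no overlap. Such a separation upward held for 10.1% of tested genes with PBS. A library held between 2215 and 6217 reads of Npy, and the gene ranked 136 to 156 by TPM in the knockout libraries and in wild type with C. albicans, against 260 to 264 in wild type with PBS. By level, knockout with PBS (967 ± 19.4 TPM, SD, n = 3) came first, followed by wild type with C. albicans (925 ± 74.6 TPM), knockout with C. albicans (920 ± 17.6 TPM) and wild type with PBS (526 ± 9.41 TPM). Each knockout group overlapped the wild-type C. albicans libraries, and wild type with PBS stood apart from all other groups.

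**Figure D1:**
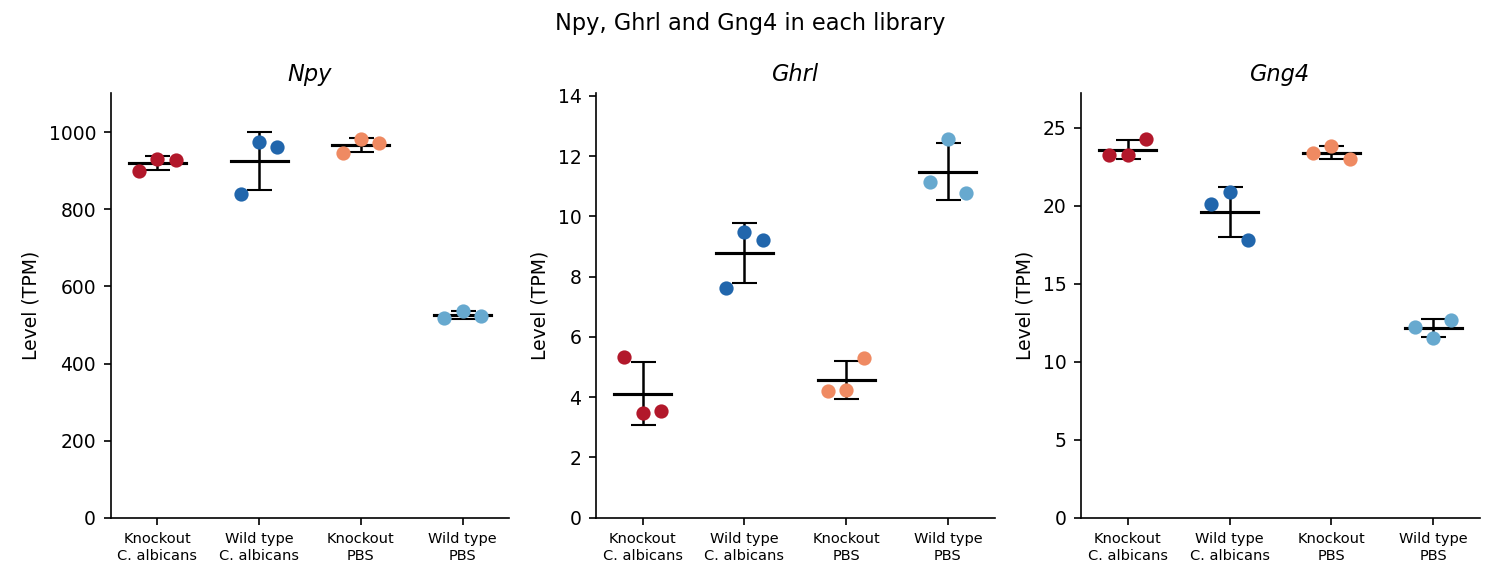
TPM of Npy, Ghrl and Gng4 in each of the 12 libraries, with points for libraries and bars for the group mean and SD, on linear axes that start at 0. The wild-type PBS group stands low for Npy and Gng4, at 526 and 12.2 TPM, and high for Ghrl, at 11.5 TPM, while the knockout groups differ little between treatments.

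The genotype gap in Npy with C. albicans was -0.0057 on the log2(TPM + 1) scale, knockout minus wild type (SE 0.046, 95% interval -0.11 to 0.095, limma adjusted p = 0.933). Its group means differed by less than 1 SD of the wild-type libraries. Without wild-type C. albicans replicate 1, the lowest of its group, the gap was -0.074 with an adjusted p of 0.0347, so that 1 library decides whether this small difference passes. Over the 20 alternatives that gap ranged from -0.074 to 0.076, with adjusted p of 0.0347 to 0.987, and it was above 0 with median-ratio (0.056) and upper-quartile scaling (0.076). With PBS, the contrast on which the gene was chosen, the gap was 0.88 (95% interval 0.78 to 0.98), or 1.84-fold. The gap with C. albicans minus that with PBS was -0.88 (SE 0.07, 95% interval -1.03 to -0.74), which has no test because the PBS gap chose the gene.

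Between treatments Npy differed in wild type by far more than in the knockout. In wild type, Npy rose by 0.81 with C. albicans (SE 0.046, adjusted p = 2.9e-08), to 1.76 times the PBS mean and higher in 3 of 3 libraries. In that comparison 18.3% of tested genes separated upward. In the knockout the difference between treatments was -0.072 (95% interval -0.17 to 0.028, adjusted p = 0.381), although every C. albicans library stood below every PBS library. Such a separation downward held for 21.1% of tested genes in that comparison. Both responses share their PBS libraries with the contrast that chose the genes, so their p-values are not independent of that choice. The authors' deposited table holds the response of wild type from the same libraries. There Npy was higher with C. albicans by 0.90 on the log2 scale, with an SE of 0.06 and a DESeq2 adjusted p of 4.81e-56.

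Ghrl was low in every group and lower in the knockout with either treatment. With C. albicans, it stood at 5.32, 3.47 and 3.55 TPM in knockout replicates 1 to 3, against 7.63, 9.48 and 9.22 TPM in wild type. With PBS, it stood at 4.20, 4.23 and 5.30 TPM in knockout cells, against 11.1, 12.6 and 10.8 TPM in wild-type cells. In neither treatment did a knockout library reach a wild-type one. Such a separation downward held for 33.3% of tested genes with C. albicans and 36.1% with PBS. A library held 28 to 69 reads of Ghrl, and 1 read was worth 0.117 to 0.185 TPM. Summed over 3 libraries, there were 94 reads in knockout and 169 in wild type with C. albicans, and 94 in knockout and 196 in wild type with PBS, which leaves a counting error of 7.14% to 10.3%.

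With C. albicans, Ghrl averaged 4.11 ± 1.04 TPM in the knockout and 8.78 ± 1.00 TPM in wild type (SD, n = 3 each), so the knockout held 46.9% of the wild-type level. The gap was -0.95 on the log2(TPM + 1) scale (SE 0.13, 95% interval -1.24 to -0.66, adjusted p = 0.000128). It passed under all 20 alternatives, at -1.11 to -0.86, with adjusted p of 3.6e-05 to 0.00286. With PBS the means were 4.58 ± 0.629 TPM in the knockout and 11.5 ± 0.953 TPM in wild type, and the gap was -1.17 (95% interval -1.46 to -0.87). The gap with C. albicans minus that with PBS was 0.22 (SE 0.19, 95% interval -0.19 to 0.63), again with no test. It was 0.056 without knockout C. albicans replicate 1, the highest of its group, and 0.13 to 0.31 without 1 of the other libraries.

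Within a genotype, Ghrl moved less than between genotypes. In wild type, it fell by 0.36 with C. albicans (SE 0.13, 95% interval -0.65 to -0.064, adjusted p = 0.0470), to 76.4% of the PBS mean. The 3 libraries of each treatment did not overlap, which held downward for 32.6% of tested genes there. The call of this fall sat at the threshold. It was lost under 14 of 20 alternatives, among them the omission of any wild-type library, with adjusted p of 0.0157 to 0.148 over the libraries left out. For the same comparison, the authors' deposited table lists Ghrl at -0.30 on the log2 scale, with an SE of 0.25 and an adjusted p of 0.394. In the knockout the difference was -0.14 (95% interval -0.43 to 0.15, adjusted p = 0.586), and the libraries overlapped. As for Npy, both responses and the authors' value use PBS libraries that chose the gene. By level the order was wild type with PBS, wild type with C. albicans, knockout with PBS and knockout with C. albicans, and the 2 knockout groups did not differ beyond their spread.

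Gng4 was higher in the knockout with either treatment, by less where C. albicans was present. With C. albicans, it stood at 23.3, 23.3 and 24.3 TPM in knockout replicates 1 to 3, against 20.1, 20.9 and 17.8 TPM in wild type. With PBS, it stood at 23.4, 23.8 and 23.0 TPM in knockout cells, against 12.3, 11.5 and 12.7 TPM in wild-type cells. The knockout libraries of both treatments lay in 1 narrow range, above every wild-type library. Within a treatment, the genotypes separated upward in 16.0% of tested genes with C. albicans and in 10.1% with PBS. A library held 276 to 887 reads of Gng4.

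With C. albicans, Gng4 averaged 23.6 ± 0.590 TPM in the knockout and 19.6 ± 1.59 TPM in wild type (SD, n = 3 each). The gap was 0.26 on the log2(TPM + 1) scale (SE 0.06, 95% interval 0.13 to 0.39, adjusted p = 0.00426) and passed under all 20 alternatives, at 0.20 to 0.34. With PBS the means were 23.4 ± 0.407 TPM in the knockout and 12.2 ± 0.584 TPM in wild type, a gap of 0.89 (95% interval 0.76 to 1.02), and the knockout mean in TPM was 1.92 times that of wild type. The gap with C. albicans minus that with PBS was -0.63 (SE 0.09, 95% interval -0.82 to -0.45). In wild type, Gng4 rose by 0.64 with C. albicans (adjusted p = 3.5e-06), to 1.61 times the PBS mean, and was higher in 3 of 3 libraries. In that comparison 18.3% of tested genes separated upward. In the knockout the difference was 0.012 (95% interval -0.12 to 0.14, adjusted p = 0.936), with overlapping libraries. For the wild-type response, the authors' deposited table lists Gng4 at 0.77 on the log2 scale, with an SE of 0.09 and an adjusted p of 4.72e-17. Both responses and the authors' value use PBS libraries that chose the gene. Their p-values are not independent of that choice. In bulk RNA, fewer cells that express a gene and less RNA per cell cannot be told apart.

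**Figure D2:**
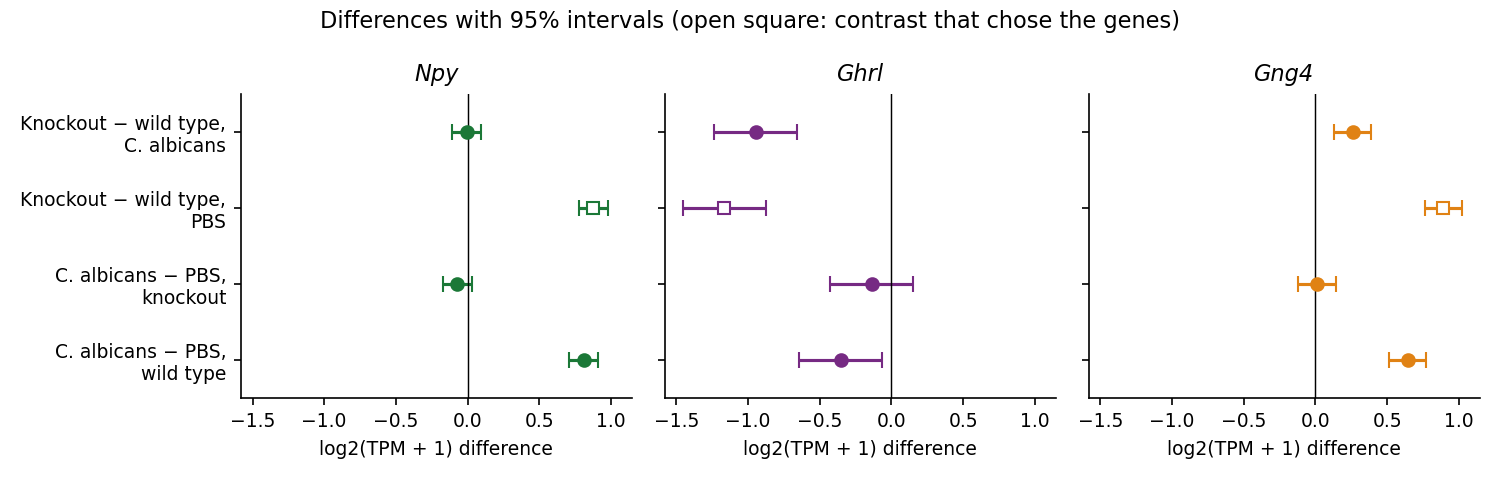
Log2(TPM + 1) differences of Npy, Ghrl and Gng4 with 95% intervals, for the genotype gap with C. albicans and with PBS (knockout minus wild type) and for the response of knockout and of wild type (C. albicans minus PBS). The Npy gap is -0.0057 with C. albicans and 0.88 with PBS, whereas the Ghrl gap is -0.95 with C. albicans and -1.17 with PBS. Open squares mark the PBS gap, which chose the genes.

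The wild-type level with C. albicans can also be set against the knockout level with PBS. For Npy, wild type with C. albicans reached 95.7% of the knockout PBS mean, and for Gng4 83.7%. Ghrl in wild type with C. albicans remained at 1.92 times the knockout PBS mean. The knockout PBS libraries were among those that chose the genes, so these shares are a description. For Npy the wild-type C. albicans libraries overlapped those of the knockout, and for Gng4 and Ghrl they did not.

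Across all 11283 tested genes, genotype calls were common, and the counts of members are read against them. With C. albicans, 12.4% of tested genes were called higher in the knockout and 27.5% lower, and of the 3 genes 1 was called higher (Gng4) and 1 lower (Ghrl). The libraries of the genotypes did not overlap in 16.0% of genes upward and 33.3% downward. With PBS, the contrast on which the 3 genes were picked, 6.14% were called higher and 26.1% lower, and the libraries did not overlap in 10.1% upward and 36.1% downward. For the response to C. albicans, 3.94% were called higher and 3.14% lower in the knockout, where 0 of the 3 genes passed by limma and 0 had an unadjusted p under 0.05. There the libraries did not overlap in 11.9% of genes upward and 21.1% downward, with Npy in the downward share. In wild type, 16.1% were called higher, with Npy and Gng4 among them, and 28.3% lower, with Ghrl among them. The libraries did not overlap in 18.3% upward and 32.6% downward. Both responses use PBS libraries on which the 3 genes were picked. With median-ratio and upper-quartile scaling, the higher share of called genes moved to 46.9% and 52.4% for the gap with C. albicans, where it was 31.1% with TPM as deposited, and to 50.2% and 41.1% with PBS, where it was 19.0%. The median log2 difference over all tested genes was -0.049 for the gap with C. albicans and -0.083 with PBS.

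The gaps with and without C. albicans share no library. With C. albicans, 12.4% of all tested genes were called higher in the knockout and 27.5% lower, which are the shares to set beside the overlaps. Of 693 genes higher in the knockout with PBS, 264 were also higher with C. albicans, which is 38.1% of the PBS list and 18.8% of the 1402 genes of the C. albicans list. Of 2948 lower genes, 1807 were lower with C. albicans as well, which is 61.3% of the PBS list and 58.3% of the C. albicans list of 3101. A limit of 0.8 on the log2 scale was then set, after the values were seen, so that it held all 3 genes. Of the 19 genes called higher with PBS at that size, 2 (10.5%) were called higher with C. albicans, near the 12.4% of all tested genes. These were Gng4 and Lyz1, a lysozyme gene that is a close copy of Lyz2, whose reads may have been shared out between them. Another 6 were called lower with C. albicans, among them Cav1, which encodes caveolin-1 and had a gap of -0.83 (adjusted p = 0.000512), and Lsp1, a leukocyte actin-binding protein gene at -0.61. The other 11 were not called and include Npy, the extracellular glutathione peroxidase gene Gpx3 and the calcium-binding protein gene S100a4, and also short RNA genes such as Mir5119 and Snord49a. Of 67 genes lower with PBS at that size, 35 were called lower with C. albicans, and Ghrl was in that number.

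**Figure D3:**
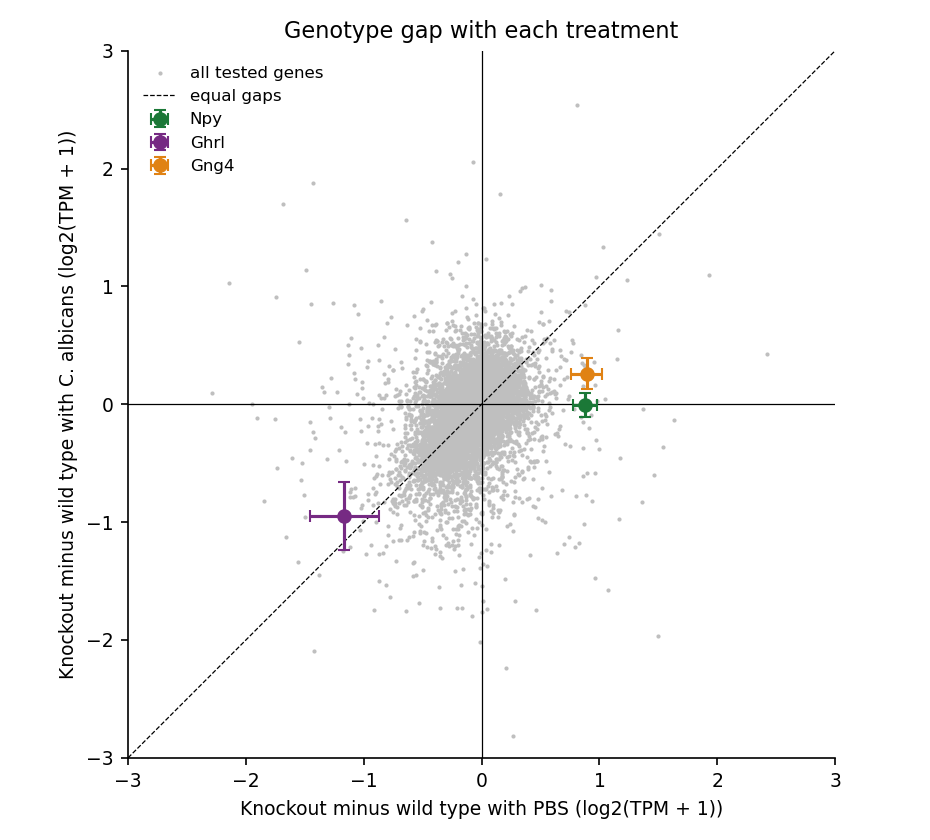
Genotype gap (knockout minus wild type, log2(TPM + 1)) with C. albicans on the vertical axis against that with PBS on the horizontal axis, 1 point for each tested gene, with Npy, Ghrl and Gng4 marked. Ghrl lies near the diagonal, at -0.95 with C. albicans and -1.17 with PBS, Gng4 below it, at 0.26 and 0.89, and Npy close to the horizontal zero line, at -0.0057 and 0.88.

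The receptor genes for these peptides and several genes specific to their maturation had few or no reads, while peptidases and thioesterases of general function were expressed. The ligand genes Pyy and Ppy, relatives of Npy, had 0 reads in all 12 libraries, as did the receptor genes Npy1r, Npy2r, Npy4r, Npy5r and Npy6r. Dpp4, which encodes a peptidase that trims neuropeptide Y, had 31 reads in all. Of the 14 other genes of the neuropeptide Y list, 4 were tested. Dpp8, a cytosolic relative of Dpp4, was lower in the knockout with C. albicans by 0.31 (adjusted p = 0.00191). The list had 0 called higher and 1 lower with C. albicans, and a median of -0.11 against -0.049 over all genes. Of all tested genes, 12.4% were called higher and 27.5% lower.

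On the ghrelin side, the receptor gene Ghsr had 1 read in all 12 libraries and Mboat4, the acyltransferase gene, had 10. Leap2, which encodes an antagonist of the receptor, had 20 reads. Of 9 other listed genes in the table, 4 were tested. In the knockout with C. albicans 0 were higher and 3 lower, against 12.4% and 27.5% of all tested genes. Lypla1, encoding a thioesterase that can remove the acyl group, fell by 0.22 (adjusted p = 0.00468), Cd36, a scavenger receptor gene, by 0.18 (adjusted p = 0.00551) and Furin, a proprotein convertase gene, by 0.15 (adjusted p = 0.0397). Cd36 averaged 548 TPM in knockout and 620 TPM in wild type with C. albicans, against 574 TPM in knockout and 491 TPM in wild type with PBS, so its gap had the other sign with PBS (0.23, adjusted p = 0.00164). The Furin call was lost with either other scaling and without wild-type C. albicans replicate 1, and the Cd36 call with upper-quartile scaling.

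Several genes of the regulated secretory route, by which endocrine cells store peptide hormones, had few or no reads. Pcsk1, which encodes the convertase that cleaves prohormones in endocrine cells, had 19 reads in all, and Pcsk2, Scg2, Scg3, Scg5 and Pcsk1n had 0. Of the 20 genes listed for prohormone processing and dense core granules, 7 were tested. In the knockout with C. albicans 0 were higher and 3 lower, against 12.4% and 27.5% of all tested genes. Cpd, a carboxypeptidase gene of the secretory pathway, averaged 67.1 ± 0.830 TPM in the knockout and 157 ± 24.4 TPM in wild type (SD, n = 3 each), a gap of -1.20 (adjusted p = 5.1e-07). With PBS, Cpd had a gap of -0.40 (adjusted p = 0.00321). Pam, the gene of the enzyme that amidates peptides such as neuropeptide Y, fell by 0.22 (adjusted p = 0.00484). Of 50 other peptide hormone genes, 4 reached the filter and 0 were called in either genotype gap by limma (0 also at an unadjusted p under 0.05), although with C. albicans 1 was called higher under either other scaling.

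Other gamma subunit genes gave the setting for Gng4, and TPM is per length so that their levels can be compared. Gng5 was the most abundant, at 640 TPM in knockout and 591 TPM in wild type with C. albicans, and at 645 TPM in knockout and 504 TPM in wild type with PBS. Gngt2, Gng2, Gng11, Gng10 and Gng12 were also above Gng4 in every group, and Gng7 was near 1 TPM. Gng4 held 2.05 ± 0.0600% of the summed gamma subunit TPM in knockout and 1.84 ± 0.147% in wild type with C. albicans, and 2.01 ± 0.0442% in knockout and 1.22 ± 0.0968% in wild type with PBS (SD, n = 3 each). With C. albicans, 12.4% of all tested genes were higher in the knockout and 27.5% lower. Of the 7 other tested gamma genes, 2 were higher in the knockout with C. albicans and 0 lower. These were Gng11, at 78.2 TPM in knockout and 57.1 TPM in wild type (0.47, adjusted p = 0.00717), and Gng5 (0.11, adjusted p = 0.0492). With PBS, 3 were higher (Gng5 at 0.36, Gng10 at 0.18 and Gng11 at 0.59) and Gng2 was lower, by 0.37. Of all tested genes, 6.14% were higher and 26.1% lower there. In wild type with C. albicans Gng5 rose by 0.23 and Gng2 fell by 0.45, and in the knockout 0 of 7 were called by limma, with 1 at an unadjusted p under 0.05. Without wild-type C. albicans replicate 1, 1 gamma gene was called lower with C. albicans.

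**Figure D4:**
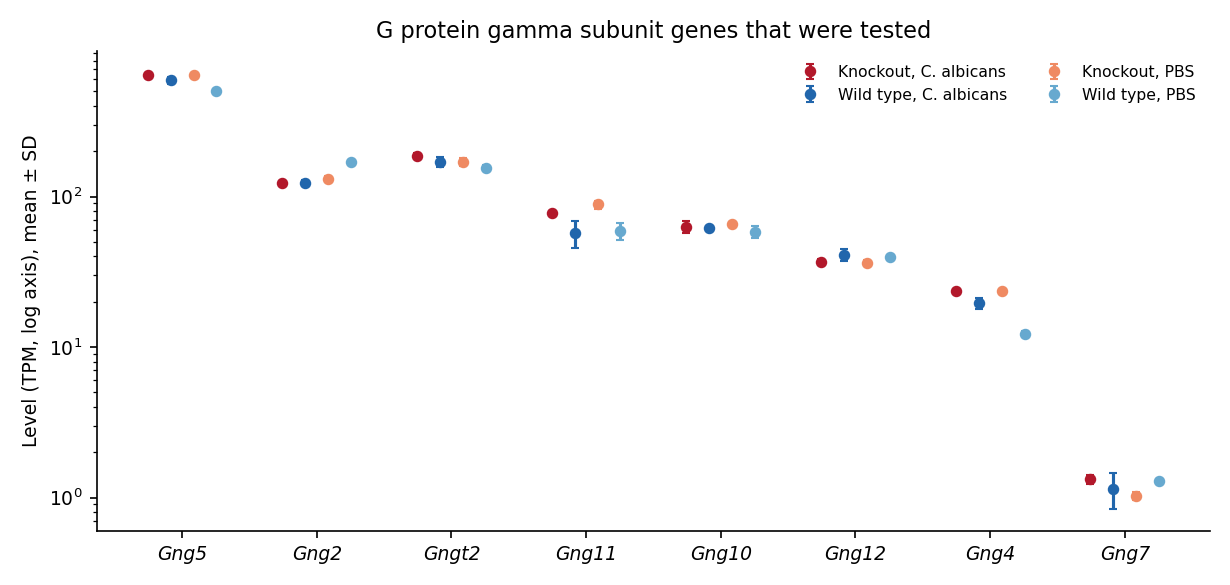
Mean TPM of the gamma subunit genes in the 4 groups, on a log axis, with bars for the SD over 3 libraries. Gng4 stands at 23.6, 19.6, 23.4 and 12.2 TPM in knockout with C. albicans, wild type with C. albicans, knockout with PBS and wild type with PBS, below Gng5, Gngt2, Gng2, Gng11, Gng10 and Gng12.

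Partners of the gamma subunits differed between genotypes in either direction. Of 4 tested beta subunit genes, 1 was higher and 1 lower with C. albicans, against 12.4% and 27.5% of all tested genes. Gnb5, a divergent beta subunit that pairs with certain RGS proteins, was higher in the knockout there (0.65, adjusted p = 0.00234). Gnb1 was lower (-0.17, adjusted p = 0.00667), a call lost under either other scaling. Of 8 tested alpha subunit genes, 0 were higher and 4 lower with C. albicans, against 12.4% and 27.5% of all tested genes. The 4 were Gna13 (-0.52), Gnaq (-0.42), Gna15 (-0.38) and Gnai3 (-0.28), with limma adjusted p of 6.7e-06 to 0.00830. With either other scaling these 4 were joined by 2 alpha genes called higher. The same 4 alpha genes each rose in wild type with C. albicans, by 0.67, 0.23, 0.51 and 0.20 in that order.

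Genes listed as effectors of beta-gamma dimers were mostly lower in the knockout. Of 12 tested, 1 was higher and 7 lower with C. albicans, where 27.5% of all tested genes were lower, and the median gap was -0.51 against -0.049 over all genes. The lower ones were the phosphoinositide 3-kinase genes Pik3cg (-0.73), Pik3r5 (-0.67), Pik3r6 (-0.51) and Pik3cb (-0.50) and the receptor kinase gene Grk3 (-0.61). The Rac exchange factor gene Prex1 (-0.54) and the phospholipase gene Plcb4 (-0.53) were lower as well. Plcb4 was near the floor, at 0.571 TPM in knockout and 1.26 TPM in wild type with C. albicans. Pik3r5 averaged 150 TPM in the knockout and 239 TPM in wild type with C. albicans, and 119 TPM in the knockout and 141 TPM in wild type with PBS. Plcb2 was the higher one (0.25, adjusted p = 0.0260). With PBS, 0 were higher and 9 lower, where 6.14% of all tested genes were higher and 26.1% lower. Under both other scalings, and with wild-type C. albicans replicate 1 left out, the lower calls with C. albicans again numbered 7. Whether these calls hold with the trend on gene length removed was not tested. Over all tested genes, lower calls then fell from 3101 to 1671 with C. albicans and from 2948 to 800 with PBS. The list of regulators of G protein signalling holds RGS genes, whose products speed the return of alpha subunits to the inactive state. It also holds genes outside that family, such as Ric8a and Pdcl. Of 12 tested, Rgs2 (0.31) and Rgs10 (0.26) were higher and Rgs1 lower (-0.33) in the knockout with C. albicans. Of all tested genes, 12.4% were higher and 27.5% lower there. Rgs1 rose by 1.00 in wild type and by 0.37 in the knockout.

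Marker genes placed the libraries among macrophages. All 12 macrophage markers were tested, and their summed level was 35408 to 35518 TPM in knockout and 39379 to 40974 TPM in wild type with C. albicans, and 34438 to 35207 TPM in knockout and 43885 to 44991 TPM in wild type with PBS. With C. albicans 5 of the 12 were called higher and 5 lower in the knockout, against 12.4% and 27.5% of all tested genes. With PBS 2 were called higher and 6 lower, against 6.14% and 26.1%. The lysozyme gene Lyz2 carried the lower sum, at 9432 TPM in knockout and 16259 TPM in wild type with C. albicans, and the other 11 summed to 25970 to 26115 TPM in knockout and 23917 to 24293 TPM in wild type. Of the 12 neuron markers 8 were at 0 reads, including Rbfox3, Snap25 and Syt1, and the list summed to at most 0.290 TPM in any library, where Npy was at 518 TPM or more. Of 8 sympathetic and chromaffin markers, Th, Dbh and Pnmt were among those at 0, and the list summed to 2.37 to 5.27 TPM. Of 11 enteroendocrine and neuroendocrine markers 5 were at 0, and the sum was 1.61 to 2.79 TPM. Megakaryocyte markers, 12 in number with Gp1bb and Gp6 among those at 0, summed to 85.4 to 94.7 TPM in knockout and 94.3 to 133 TPM in wild type with C. albicans, and to 82.7 to 85.0 TPM in knockout and 89.1 to 94.4 TPM in wild type with PBS.

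Some small marker sums moved with the PBS gap of the 3 genes. The neutrophil sum was mostly Mmp8 and S100a8. These were called higher in the knockout with PBS, S100a8 by 0.89 and Mmp8 by 0.33, where 6.14% of all tested genes were. Neutrophil markers, 10 in number with Ly6g, S100a9 and Retnlg at 0, summed to 9.35 to 11.8 TPM in knockout and 12.5 to 14.6 TPM in wild type with C. albicans, and to 12.5 to 15.9 TPM in knockout and 9.40 to 9.45 TPM in wild type with PBS. Lymphocyte markers, 10 in number with Cd3e at 0, summed to 11.8 to 13.9 TPM in knockout and 13.3 to 17.2 TPM in wild type with C. albicans, and to 8.97 to 10.5 TPM in knockout and 20.8 to 21.0 TPM in wild type with PBS, mostly Cd4. Dendritic cell markers summed to 1309 to 1646 TPM, nearly all of it Bst2, a gene that many cell types express, and the other 7 each stayed at or under 1.24 TPM. Over all libraries, mast cell markers summed to 1.46 to 2.94 TPM, stromal markers to 1.39 to 2.59 TPM and erythroid markers to 0.127 to 0.770 TPM. The part of these sums in the genotype gaps was not tested.

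Gene length also moved with the genotype gap. Across the 11283 tested genes, which are not independent replicates, the log2 difference had a Spearman correlation with gene length of -0.40 with C. albicans and -0.46 with PBS. Npy and Ghrl are short, at percentiles 3.84 and 5.67 of the lengths recovered from the table, and Gng4 is at percentile 54.4. With the trend on length removed, the gap with C. albicans was -0.067 for Npy, -1.01 for Ghrl and 0.33 for Gng4, and with PBS 0.81, -1.22 and 0.98. The part of length in the gaps was not tested further.

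The nearest tested genes were examined, 2 on each side of a member, and genes that did not reach the filter were passed over. Around Npy, Fam221a, Ccdc126, Pals2 and Gsdme, at least 281 kb away, were not called in either genotype gap. Next to Ghrl, Tatdn2, a gene 5.04 kb away, was lower in the knockout with C. albicans by 0.20 (adjusted p = 0.00874), and Sec13, a gene of the nuclear pore and COPII coat 8.14 kb away, was not called at 0.030 (adjusted p = 0.604). Next to Gng4, Lyst, a lysosomal trafficking gene 5.26 kb away, had a genotype gap of the other sign, at 26.6 TPM in the knockout and 57.7 TPM in wild type with C. albicans (-1.08, adjusted p = 1.4e-06). With PBS, Lyst had 27.1 TPM in the knockout and 38.4 TPM in wild type, and in wild type it rose with C. albicans by 0.56 (adjusted p = 0.000203), as Gng4 did. Gpr137b, 390 kb away, was lower in the knockout with C. albicans by 0.23 (adjusted p = 0.00187) and higher with PBS by 0.29 (adjusted p = 0.000552), and rose by 0.69 in wild type. The other neighbours, Mir7042 and Atg7 for Ghrl and B3galnt2 and Tbce for Gng4, were not called in either genotype gap. The annotation places an antisense gene, Gm26982, and another opposite-strand gene, Gm44033, over Ghrl, and a small RNA gene, Gm25271, inside Gng4. None of these is in the table, and the sources used here do not say whether counting used strand, so reads of Ghrl and of transcripts from the other strand cannot be told apart.

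The genes most like each member were listed by Pearson correlation of log2(TPM + 1) over the 12 libraries, which share genotype and treatment. For Npy, these were the calcium-binding protein genes S100a6 (r = 0.98) and S100a10 (0.97), the ribosomal protein gene Rpl21 (0.97), the aldo-keto reductase gene Akr1b8 (0.97) and Gpx3 (0.96). S100a6 averaged 625 TPM in knockout and 644 TPM in wild type with C. albicans, and 612 TPM in knockout and 355 TPM in wild type with PBS. For Gng4 they were Creg1 (0.97), Gpx3 (0.95), Tpt1 (0.95), Gng5 (0.95) and Npy itself (0.94). For Ghrl they were Mia3 (0.98), Serac1 (0.97), Cpeb2 (0.97), Gpr107 (0.97) and Hp1bp3 (0.96). By Spearman correlation only S100a10 for Npy and Cpeb2 for Ghrl were still among the nearest 5 genes. Among the members, r was 0.94 for Npy and Gng4 (Spearman 0.57), -0.71 for Npy and Ghrl (Spearman -0.49) and -0.87 for Ghrl and Gng4 (Spearman -0.89).

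**Figure D5:**
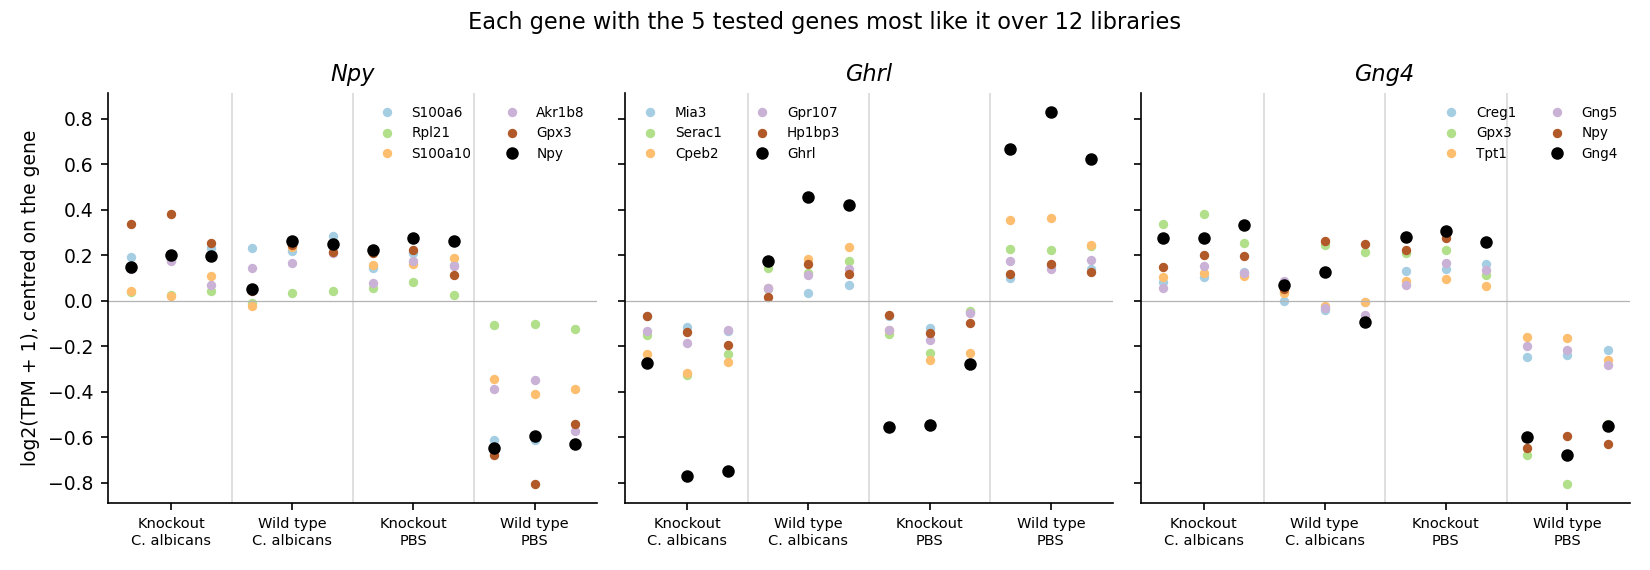
Level of each member and of the 5 genes most correlated with it, as log2(TPM + 1) centred on the mean over libraries, in the 12 libraries. For Npy and its nearest genes the wild-type PBS libraries stand lowest, as in S100a6, at 612 to 644 TPM in the other groups and 355 TPM in wild type with PBS.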

How the data were processed

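The 12 libraries of polyadenylated RNA, from cultured mouse macrophages, were grouped by the genotype and treatment labels. Per the submitters' processing notes, the tools were STAR 2.7.5a, cutadapt 2.6, DESeq2 1.34.0 and CASAVA 1.8, and the build was mm10. Which counter was run, and with which strand setting, is not stated there. The authors deposited TPM for 25230 genes in each library. The same table holds, per the file headers, a mean normalised signal, log2 fold changes and their errors, a test score and p-values, all deposited by the authors for 1 comparison. By value this was C. albicans over PBS in wild type: the log2 ratio of scaled reads differed from the deposited one by a median of 0.00106 over 10362 genes with at least 20 reads in each library used. Whole reads were recovered from TPM and mean signal, and 100% of 171648 nonzero values lay within 0.01 of a whole read. These reads gave the depth, the counting error, the replicate chi-square, the match to the deposited comparison and the simulated data. The fit of the differences used TPM.

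Differences were fitted with limma (3.58.1, run in R 4.3.3) on values of log2(TPM + 1), a scale that understates the change of low genes, with 1 mean per group, all 12 libraries, a variance trend and 8 residual degrees of freedom. The fit took the 11283 genes that reached 1 TPM in 3 or more libraries, including all 3 members. Two-sided p-values were adjusted over all tested genes of a comparison (Benjamini-Hochberg), with a threshold of 0.05. The fit was tested on simulated data. Alternatives changed the pseudocount, filter, variance trend, scaling, libraries fitted, replicate block and length trend, or left out a library in turn.

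The members and lists were chosen with earlier results of these data known. Named genes are the members, listed genes that passed the gap with C. albicans or whose role ties them to a member, the 5 nearest genes by correlation and the neighbours; examples from the PBS gap and the responses were taken from these and from the 19 genes with large PBS gaps after their values were seen. Of 25230 gene IDs, 25180 matched the RefSeq table of GRCm38.p6, the assembly that mm10 names. Promoter windows run from base 250 to base 1 before the outermost start. Some marker genes are not reported here by name.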

Additional observations from a re-analysis of the deposited data

Results flagged for a closer look

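Npy had library values that separated the treatments in opposite directions in the genotypes. In the knockout every C. albicans library lay below every PBS library, but the difference of -0.072 on the log2(TPM + 1) scale did not pass (95% interval -0.17 to 0.028, adjusted p = 0.381), and 21.1% of tested genes separated downward in that comparison. In wild type every C. albicans library lay above every PBS library (0.81, limma adjusted p = 2.9e-08), and 18.3% of tested genes separated upward there. The difference between these responses was not tested, since the PBS libraries chose the gene.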

How the results depend on the processing

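Ghrl and Gng4 kept their gap with C. albicans, and Npy and Gng4 their rise in wild type, under all 20 alternatives. The rise uses the wild-type PBS libraries that chose the genes. The Npy gap with C. albicans changed sign with median-ratio scaling (0.056, adjusted p = 0.439) and upper-quartile scaling (0.076, adjusted p = 0.284), and ranged from -0.074 to 0.033 with a library left out. The Npy gap with PBS was 0.81 with the length trend removed, 0.98 with median-ratio and 0.95 with upper-quartile scaling (0.87 to 0.89 with a library left out), and that of Gng4 0.98, 0.98 and 0.96. The gap difference of Npy was -0.95 to -0.85 with a library left out, and the response of Gng4 in the knockout -0.0081 to 0.024. The fall of Ghrl in wild type lost its call with median-ratio scaling (-0.28, adjusted p = 0.122), no filter (-0.36, 0.0952), a pseudocount of 0.1 (-0.39, 0.0609), upper-quartile scaling (-0.34, 0.0601) and no variance trend (-0.36, 0.0596), and was -0.41 to -0.27 with a library left out; the cause was not tested.

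Replicate numbers gave no sign of pairing: same-numbered libraries correlated at -0.0874 to 0.0871 in their deviations, and differently numbered ones at -0.0672 to 0.0840. Such correlations cannot show that the samples were unpaired. With the replicate block, the fall of Ghrl in wild type was -0.36 (adjusted p = 0.0715), and the other calls of the members held.

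Genes called higher with C. albicans between genotypes numbered 1402, against 2172 with median-ratio and 2468 with upper-quartile scaling, and those lower 3101, against 1671 with the length trend removed. With PBS 693 were higher, against 1606 and 1293, and 2948 lower, against 1595 and 1853 and 800 by length. Those lower with C. albicans in the knockout numbered 354, against 209 with the length trend removed, 172 with median-ratio scaling, 234 with no filter, 722 with only the 6 libraries compared, 98 to 179 without 1 of 5 knockout libraries and 824 when wild-type C. albicans replicate 1 was omitted. In wild type 3192 were lower, against 2066 with median-ratio scaling. The share higher among called genes was 55.7% in the knockout (78.0% and 65.1% with the 2 scalings) and 36.2% in wild type (55.5% and 38.7%). Low read numbers limit Ghrl, at 28 to 69 reads per library. Per-gene values of listed genes under other scalings were added after seeing the data.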
